A study of Mus musculus with 19 samples.

Results

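The genes described here encode metabotropic glutamate receptors of the mouse. They are the lines of the 9 deposited expression files whose gene name is Grm2, Grm3, Grm4, Grm5, Grm7 or Grm8, which makes 6 genes of 24058. All 6 were found, and all 6 passed the filter on low values (1 RPKM or more in at least 3 libraries), which left 14801 genes for testing. The cells were cultured hippocampal neurons taken from mice at embryonic day 17 and kept 10 days in vitro. Bic/4AP neurons received bicuculline, which blocks GABA-A receptors, and 4-aminopyridine, which blocks potassium channels, for 3 h. TTX neurons received tetrodotoxin, which blocks voltage-gated sodium channels, for a time not given in the sources used here. Untreated neurons received neither. The labels name no mutation in any group. Expression and histone marks were measured in ICR mice and CpG methylation in C57BL/6 mice, so methylation came from other animals of another strain. Expression had 3 libraries a treatment, methylation 1 library a treatment, the active mark H3K27ac 2 peak lists each for Bic/4AP and untreated neurons, and the enhancer mark H3K4me1 2 lists for untreated neurons. Nothing in the labels ties the 3 libraries of a treatment to different cultures or animals. The p-values therefore describe library-to-library spread, part or all of which may be technical.

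Metabotropic glutamate receptors are G protein-coupled receptors that respond to glutamate slowly and adjust synapses rather than carry fast transmission. Group I receptors, here Grm5, couple to Gq, which activates phospholipase C, releases calcium through inositol trisphosphate receptors and activates protein kinase C, and they sit mostly around the postsynaptic density. Group II receptors (Grm2 and Grm3) and group III receptors (Grm4, Grm7 and Grm8) couple to Gi/o, which inhibits adenylyl cyclase and opens inwardly rectifying potassium channels, and many act on presynaptic terminals to reduce transmitter release. In the hippocampus Grm7 lies in the active zone of terminals, and Grm3 is also made by astrocytes.

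The 250 bases before the first listed start are shown for Grm2, Grm7 and Grm8, the receptor genes called lower in Bic/4AP neurons on the deposited values. CpG methylation was measured at part of the CG in and around them: from 250 bases before to 50 after the start, 7 CpGs of Grm2, 3 of Grm7 and 33 of Grm8 were listed in all 3 libraries. The sequences are RefSeq's on build GRCm38.p6, written 5′ to 3′ on the gene's strand with each CG in capitals. They lie at chr9:106656110-106656359 on the minus strand for Grm2, at chr6:110645262-110645511 on the plus strand for Grm7 and at chr6:28135147-28135396 on the minus strand for Grm8.
Grm2: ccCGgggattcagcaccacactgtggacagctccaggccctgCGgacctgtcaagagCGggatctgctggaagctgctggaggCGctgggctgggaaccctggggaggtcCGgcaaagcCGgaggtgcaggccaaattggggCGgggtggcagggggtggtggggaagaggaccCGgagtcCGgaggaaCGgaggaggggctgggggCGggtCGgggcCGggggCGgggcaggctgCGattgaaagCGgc
Grm7: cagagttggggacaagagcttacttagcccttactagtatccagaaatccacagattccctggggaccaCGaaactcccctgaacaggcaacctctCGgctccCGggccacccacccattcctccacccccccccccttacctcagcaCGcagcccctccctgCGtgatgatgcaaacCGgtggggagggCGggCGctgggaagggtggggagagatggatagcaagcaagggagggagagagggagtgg
Grm8: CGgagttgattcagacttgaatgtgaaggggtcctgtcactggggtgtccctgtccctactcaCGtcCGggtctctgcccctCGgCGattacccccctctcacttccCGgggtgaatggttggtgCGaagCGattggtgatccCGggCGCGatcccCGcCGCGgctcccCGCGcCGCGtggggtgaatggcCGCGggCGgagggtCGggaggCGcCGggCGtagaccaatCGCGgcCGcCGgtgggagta
The Grm8 stretch holds 29 CG, the Grm2 stretch 16 and the Grm7 stretch 8, against a median of 6 over 27025 promoters of the same length. RefSeq also lists a second Grm7 start, whose stretch holds 9 CG, and 2 further Grm8 starts, whose stretches hold 8 and 2 CG. The AP-1 motif TGANTCA was searched on both strands and occurred 1 time in the Grm8 stretch shown and neither in the other stretches shown nor at the further starts, while 6.87% of all promoters held it. The cyclic AMP response element TGACGTCA was in none of the 3, and 1.62% of all promoters held it. The motifs do not overlap each other here, and a match or its lack says nothing of binding.

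Reads recovered from the RPKM steps numbered 4.33 to 4.58 M in Bic/4AP libraries, 9.66 to 12.6 M in TTX libraries and 5.62 to 9.96 M in untreated libraries. Neuronal marker genes were abundant in all libraries, with summed levels of 1211 to 1232 RPKM with Bic/4AP, 746 to 824 RPKM with TTX and 765 to 902 RPKM untreated. All 14 choroid plexus markers were lower in both treatments than in untreated neurons, with summed levels of 31.2 to 36.3 RPKM with Bic/4AP and 18.3 to 25.9 RPKM with TTX, against 441 to 657 RPKM untreated. All 10 RNAs without poly(A) tails were also lower, at 74.6 to 93.4 RPKM with Bic/4AP and 43.6 to 54.8 RPKM with TTX, against 771 to 1253 RPKM untreated. No marker of either list was at 0 in all libraries of any group, apart from Scarna17 in Bic/4AP libraries. Untreated libraries thus stood apart in both lists, and the part of this in the receptor results was not tested. Quantile or cyclic loess normalization moved the median change of all genes by up to 0.18 log2 units in Bic/4AP against untreated, 0.16 in TTX against untreated and 0.32 in Bic/4AP against TTX, so each change below is also given relative to that median. Calls in Bic/4AP against untreated were 41.0% higher as deposited and 55.7% after quantile normalization. In TTX against untreated they were 63.3% higher as deposited and 46.5% after loess, and in Bic/4AP against TTX 30.9% higher as deposited, 48.2% after quantile and 49.3% after loess.

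Grm5 was the most abundant of the 6 receptor mRNAs in every library, and Grm7 came second by group mean in each treatment. Grm5 made up 65.2 to 73.8% of the summed RPKM of the 6 genes with Bic/4AP, 42.8 to 45.7% with TTX and 41.6 to 45.1% untreated. The summed level itself was 93.3 to 108 RPKM with Bic/4AP, 96.1 to 100.1 RPKM with TTX and 129 to 139 RPKM untreated. Per length, Bic/4AP neurons ranked Grm5, Grm7, Grm3, Grm4, Grm2 and Grm8 from high to low, where libraries of Grm7 and Grm3 overlapped, as did those of Grm4 and Grm2 and those of Grm2 and Grm8. TTX neurons ranked Grm5, Grm7, Grm2, Grm4, Grm3 and Grm8, with no overlap between neighbours. Untreated neurons ranked Grm5, Grm7, Grm2, Grm3, Grm4 and Grm8, where Grm4 and Grm8 overlapped.

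**Figure D1:**
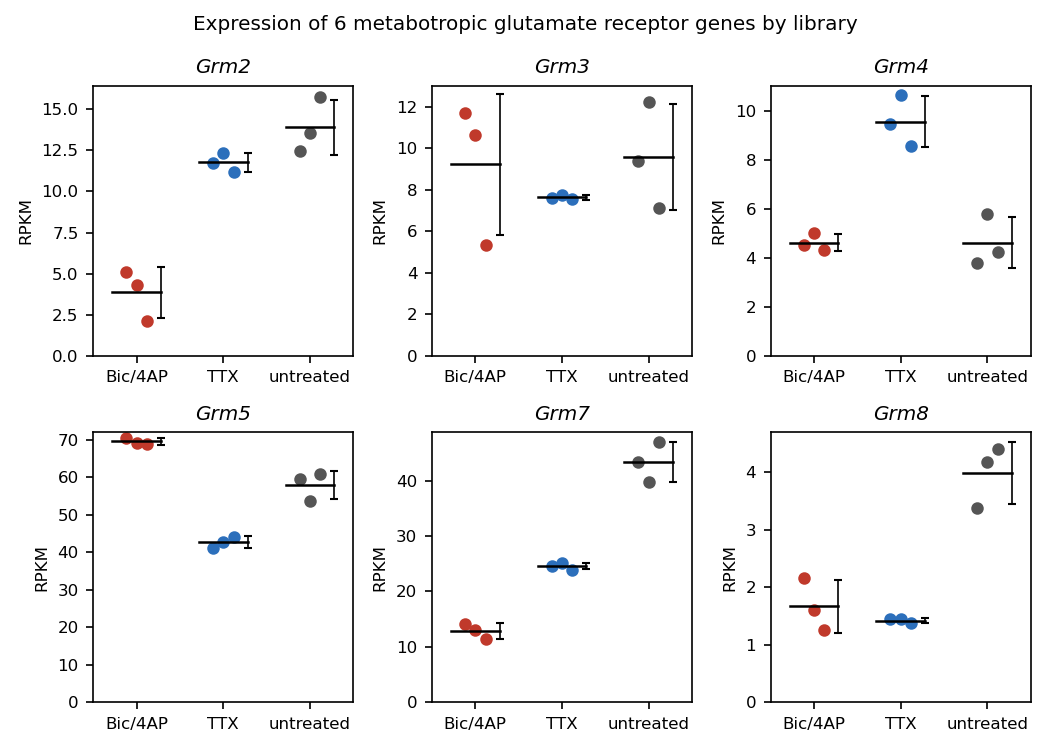
Each panel plots RPKM of 1 receptor gene (vertical axis, from 0) in 3 libraries each of Bic/4AP, TTX and untreated neurons; points are libraries, lines are means and bars are SD. Grm7 lies at 11.4 to 14.2 RPKM with Bic/4AP, 23.9 to 25.1 RPKM with TTX and 39.8 to 46.9 RPKM untreated, without overlap.

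In Bic/4AP against untreated neurons, 1 of the 6 genes was higher, 3 were lower and 2 did not pass, at a Benjamini-Hochberg adjusted p of 0.05 over all genes (limma). Over all genes 72.1% were called, 29.6% higher and 42.5% lower, so 4 of 6 called is near the background. In TTX against untreated neurons the counts were again 1 higher, 3 lower and 2 not passed, against 64.1% called over all genes (40.6% higher and 23.5% lower). In Bic/4AP against TTX neurons they were 1 higher, 3 lower and 2 not passed, against 76.8% called (23.7% higher and 53.1% lower). After quantile and after loess normalization this last comparison had 3 higher and 2 lower. Over all 14801 genes, 4986 were then higher and 5351 lower after quantile, and 5134 higher and 5290 lower after loess. TTX against untreated had 1 higher and 5 lower after loess normalization, beside 4553 higher and 5241 lower of all 14801 genes. Bic/4AP against untreated had 1 higher and 4 lower after loess normalization, beside 5300 and 5174 of all genes. After quantile normalization it had 1 higher and 3 lower, beside 5741 and 4568. In both cases the higher gene was Grm4, and Grm5, the higher gene as deposited, was called lower. The libraries did not overlap for 4 of 6 genes with Bic/4AP against untreated (71.3% of all genes), for 5 with TTX against untreated (69.6%) and for 4 with Bic/4AP against TTX (81.5%). The comparisons share libraries, and the genes called were not the same ones in each.

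The group I receptor gene Grm5 had 70.4, 69.2 and 68.9 RPKM with Bic/4AP, from 2547 to 2717 reads a library. It had 41.2, 42.8 and 44.2 RPKM with TTX. Untreated libraries had 59.4, 53.8 and 60.8 RPKM. Bic/4AP libraries were all above untreated ones and TTX libraries all below them, with no overlap between any groups. The TTX difference held under each scaling: log2 change -0.43 (SE 0.06, adjusted p = 4.83e-05), or -0.56 relative to the median gene, -0.51 after quantile and -0.41 after loess normalization. Its decile by level had a median TTX change of -0.07 and a 5th percentile of -0.42, so Grm5 as deposited lay just below that range. The Bic/4AP difference was called higher on the deposited values (log2 change 0.26, SE 0.06, adjusted p = 0.0013), or 0.38 relative to the median gene. It turned round after quantile normalization, at -0.16 (adjusted p = 0.00158), and after loess normalization, at -0.14 (adjusted p = 0.00781), and it lay below the median of 0.44 over genes in the same decile by level, so the direction of Grm5 with Bic/4AP depends on scaling. Grm5 was higher with Bic/4AP than with TTX under all 3 scalings, at 0.69 as deposited (adjusted p = 3.99e-07), 1.02 relative to the median gene, 0.35 after quantile and 0.27 after loess normalization. Genes in its decile by level had a median change of 0.49 between Bic/4AP and TTX. Their 5th to 95th percentile was -0.16 to 1.01, so Grm5 lay inside that range.

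Of the group II genes, which encode autoreceptors of terminals and, for Grm3, a receptor of astrocytes, Grm2 was lower with Bic/4AP. Grm2 had 5.12, 4.33 and 2.15 RPKM with Bic/4AP, 11.7, 12.4 and 11.2 RPKM with TTX, and 12.4, 13.5 and 15.7 RPKM untreated. Every Bic/4AP library was below every library of the other groups, and replicate 3 was lowest, with 31 reads and a counting error of 18.0%. The change against untreated was -1.66 (SE 0.20, adjusted p = 1.31e-05) as deposited, -1.54 relative to the median gene, and -1.15 and -1.16 after quantile and loess normalization, all called. In the decile of genes of its level, the median change was -0.55 and the 5th percentile -2.32, so Grm2 lay inside the range of its neighbours. Against TTX the change was -1.45 (adjusted p = 3.55e-05), -1.11 relative to the median gene, -0.68 after quantile and -0.61 after loess normalization. In that comparison its decile had a median of -0.89 and a 5th percentile of -2.05, so Grm2 again lay inside the range. In bulk RNA, fewer cells of a type and less RNA per cell cannot be told apart. Summed interneuron markers (10 genes) were at 684 to 721 RPKM with Bic/4AP, 448 to 501 RPKM with TTX and 359 to 416 RPKM untreated. Dentate granule and pyramidal markers (10 genes) were at 339 to 354 RPKM, 301 to 307 RPKM and 331 to 378 RPKM in that order. The part of either in the Grm2 values was not tested. With TTX, Grm2 libraries lay just below the untreated ones without passing the test (log2 change -0.22, SE 0.20, adjusted p = 0.357). After loess normalization that change was -0.55 and passed (adjusted p = 0.0306).

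Grm3, the other group II gene, had the largest standard error of the 6 in the fit. It had 11.7, 10.7 and 5.34 RPKM with Bic/4AP, 7.60, 7.75 and 7.54 RPKM with TTX, and 9.39, 12.2 and 7.14 RPKM untreated. All pairs of groups overlapped, the TTX libraries lay close together, and Bic/4AP replicate 3 stood below the other libraries, from 82 reads. No comparison passed on the deposited values, with log2 changes of -0.09 in Bic/4AP against untreated (adjusted p = 0.759), -0.27 in TTX against untreated (adjusted p = 0.34) and 0.18 in Bic/4AP against TTX (adjusted p = 0.498). The 95% intervals of those changes ran over -0.60 to 0.43, -0.79 to 0.25 and -0.34 to 0.70. Bic/4AP was called above TTX after quantile (0.86) and loess normalization (1.02), and without Bic/4AP replicate 3 (0.49, adjusted p = 0.0219). TTX was called below untreated after loess normalization (-0.60, adjusted p = 0.0312). Summed astrocyte markers, 13 genes, were at 236 to 269 RPKM with Bic/4AP and 223 to 250 RPKM with TTX, against 171 to 183 RPKM untreated, and their part in the Grm3 values was not tested.

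Grm7, the group III receptor of the active zone, had the smallest adjusted p of the 6 in Bic/4AP against untreated. It had 14.2, 13.0 and 11.4 RPKM with Bic/4AP, 24.7, 25.1 and 23.9 RPKM with TTX, and 43.3, 39.8 and 46.9 RPKM untreated. The 3 groups were wholly separate, with Bic/4AP lowest and untreated highest. Bic/4AP fell against untreated by 1.68 on the log2 scale (SE 0.08, adjusted p = 1.08e-08), with a change of -1.56 relative to the median gene. The change was -1.50 after quantile and -1.62 after loess normalization. Genes in its decile by level had a median change of 0.01 and a 5th percentile of -0.97, so Grm7 lay below that range. TTX also gave lower values, at -0.79 (SE 0.08, adjusted p = 8.76e-06), -0.92 relative to the median gene, -1.09 after quantile and -1.01 after loess normalization, and this too was below the 5th percentile of -0.44 for its decile. Bic/4AP was lower than TTX, at -0.89 (adjusted p = 9.56e-07), -0.56 relative to the median gene, -0.41 after quantile and -0.61 after loess normalization. In that comparison its decile had a median of -0.25 and a 5th percentile of -1.04, so Grm7 lay inside the range.

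Grm8, another group III receptor of terminals, was the least abundant. It had 2.16, 1.60 and 1.25 RPKM with Bic/4AP, from 36, 27 and 20 reads, 1.44, 1.44 and 1.38 RPKM with TTX, and 3.38, 4.17 and 4.41 RPKM untreated. Counting error alone was 16.7 to 22.4% in the Bic/4AP libraries. Both treatments lay below every untreated library and overlapped each other. The TTX change was -1.04 (SE 0.16, adjusted p = 0.000167), -1.17 relative to the median gene, -0.86 after quantile and -1.07 after loess normalization, called each time. The Bic/4AP change was -0.91 (SE 0.16, adjusted p = 0.000291), -0.78 relative to the median gene and -0.47 after loess normalization, where it was still called, and -0.36 after quantile normalization, where it was not (adjusted p = 0.0649). Both changes lay inside the range of genes in its decile by level, whose median and 5th percentile were -0.38 and -2.99 for Bic/4AP and 0.04 and -2.69 for TTX. Bic/4AP against TTX did not pass as deposited (0.13, 95% interval -0.22 to 0.48, adjusted p = 0.48) and was called higher after quantile (0.50) and loess normalization (0.60).

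Grm4, the remaining group III gene, was the only one of the 6 that was higher with TTX than untreated, the comparison in which Grm5, Grm7 and Grm8 were called lower. It had 4.54, 5.02 and 4.31 RPKM with Bic/4AP, 9.48, 10.7 and 8.56 RPKM with TTX, and 3.81, 5.79 and 4.25 RPKM untreated. TTX libraries were all above the others, and Bic/4AP and untreated libraries overlapped. Summed markers of the oligodendrocyte lineage (8 genes) were at 22.2 to 28.7 RPKM with Bic/4AP, 43.0 to 52.1 RPKM with TTX and 23.0 to 29.7 RPKM untreated, with Sox10 at 0 in all Bic/4AP libraries, and 4 of 6 tested were higher and 2 lower with TTX than untreated. Summed vascular and mural markers (10 genes) were at 24.6 to 34.9 RPKM with Bic/4AP, 38.2 to 46.1 RPKM with TTX and 23.2 to 30.0 RPKM untreated, with Cldn5 at 0 in all Bic/4AP libraries, and 5 of 7 tested were higher and none lower with TTX than untreated. The part of either in the Grm4 values was not tested. The TTX change was 0.92 (SE 0.15, adjusted p = 0.000231), 0.79 relative to the median gene, 0.80 after quantile and 0.61 after loess normalization, called each time. Genes in its decile by level had a median TTX change of 0.28 and a 95th percentile of 1.32, so Grm4 lay inside their range. Bic/4AP against untreated did not pass as deposited (0.02, 95% interval -0.31 to 0.34, adjusted p = 0.931) and was called higher after quantile (0.69) and loess normalization (0.54). Bic/4AP against TTX was called lower as deposited (-0.91, adjusted p = 0.000146), or -0.57 relative to the median gene. That call was lost after quantile (-0.12, adjusted p = 0.357) and loess normalization (-0.08, adjusted p = 0.516). In Bic/4AP against TTX, genes of its decile had a median change of -0.89 and a 5th percentile of -2.05. The deposited Grm4 change thus lay near the median of genes of its level.

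**Figure D2:**
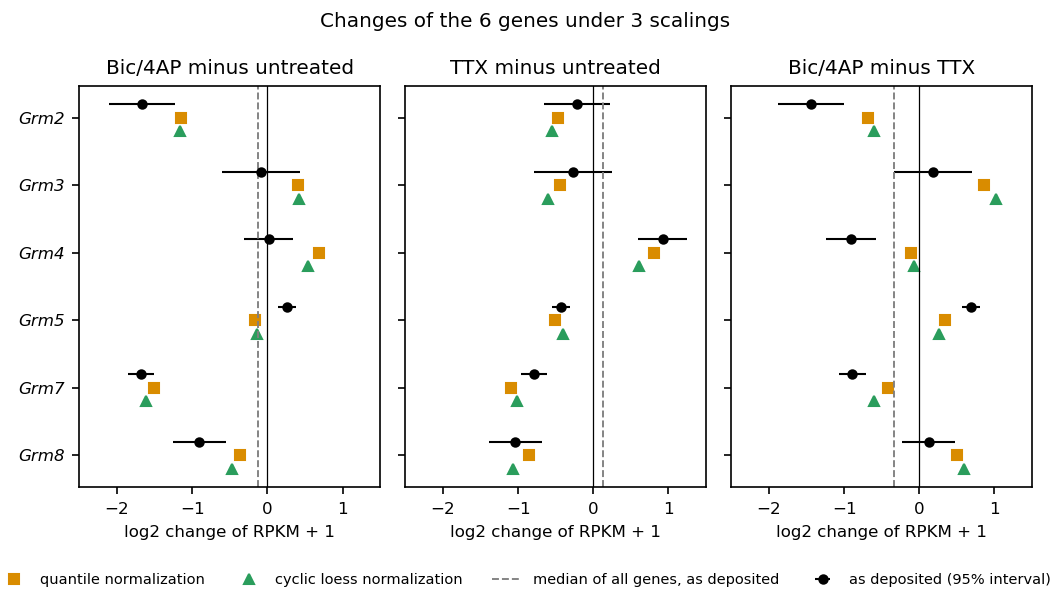
The 3 panels plot the log2 change of RPKM + 1 (horizontal axis) of each receptor gene for Bic/4AP minus untreated, TTX minus untreated and Bic/4AP minus TTX, as deposited with a 95% interval, after quantile and after cyclic loess normalization; the dashed line is the median of all genes as deposited. Grm7 stays left of 0 in every panel and scaling, while Grm5 changes side in the first panel, at 0.26 as deposited against -0.16 and -0.14 after normalization.

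The genes downstream of these receptors moved in both directions. Their counts stand beside 29.6% higher and 42.5% lower over all genes in Bic/4AP against untreated as deposited. For TTX against untreated those shares were 40.6% and 23.5%. After quantile normalization 5741 of all 14801 genes were higher and 4568 lower with Bic/4AP than untreated. After loess normalization these counts were 5300 and 5174. Of 18 tested genes of the Gq pathway used by Grm5, 5 were higher and 5 lower with Bic/4AP than untreated, with a median change of 0.02 against -0.12 over all genes, and 3 were higher and 9 lower after quantile normalization. Itpr1, the inositol trisphosphate receptor that releases calcium, averaged 9.78 ± 0.531 RPKM with Bic/4AP and 30.2 ± 3.91 RPKM untreated (SD, n = 3 each, limma adjusted p = 4.54e-08). Dgkz, a kinase that removes diacylglycerol, averaged 15.4 ± 0.145 RPKM with Bic/4AP and 47.8 ± 8.64 RPKM untreated (adjusted p = 8.2e-08). Both were also called lower with TTX than untreated, at log2 changes of -0.64 and -0.66, and kept these calls and directions after quantile and loess normalization. Mapk3, the kinase ERK1, averaged 70.5 ± 0.809 RPKM with Bic/4AP and 47.5 ± 2.11 RPKM untreated (adjusted p = 3.64e-06), and kept that call under the 3 scalings.

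Of 24 genes of the Gi/o pathway used by group II and III receptors, 13 were higher and 7 lower with Bic/4AP than untreated as deposited, and 8 were higher and 8 lower after quantile normalization. Rgs4, which speeds the switching-off of G proteins, reached 195 ± 2.82 RPKM with Bic/4AP, against 81.1 ± 8.28 RPKM untreated (adjusted p = 7.12e-08). Kcnj9, a subunit of the G protein-gated potassium channels, averaged 1.996 ± 0.454 RPKM with Bic/4AP and 20.4 ± 3.60 RPKM untreated (adjusted p = 1.41e-08). Adcy6, an adenylyl cyclase, averaged 3.48 ± 0.193 RPKM with Bic/4AP and 18.2 ± 1.71 RPKM untreated (adjusted p = 1.1e-08). These calls held under the 3 scalings. With TTX against untreated, 8 of the 24 were higher and 10 lower, among them the channel subunit Kcnj6 (-0.73) and the cyclase Adcy9 (-0.88).

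Among 26 tested scaffolds and partners of these receptors, 12 were higher and 9 lower with Bic/4AP than untreated as deposited, 11 higher and 9 lower after quantile and 8 higher and 13 lower after loess normalization. Homer1, whose protein binds Grm5, averaged 72.1 ± 2.51 RPKM with Bic/4AP and 30.1 ± 0.957 RPKM untreated (adjusted p = 4.08e-09). The values are per gene and do not separate long and short forms of Homer1. Homer3, of the same family, averaged 6.67 ± 0.159 RPKM with Bic/4AP and 18.5 ± 2.53 RPKM untreated (adjusted p = 2.86e-07). Pick1, a PDZ protein that binds Grm7, averaged 8.43 ± 0.493 RPKM with Bic/4AP and 19.9 ± 1.75 RPKM untreated (adjusted p = 1.13e-07). With TTX against untreated, 9 of the 26 were higher and 10 lower. Elfn1, a postsynaptic adhesion protein that binds Grm7 across the synapse, averaged 11.0 ± 0.961 RPKM with TTX and 5.01 ± 1.11 RPKM untreated (adjusted p = 5.07e-05). Its relative Elfn2 averaged 14.1 ± 0.812 RPKM with Bic/4AP and 27.6 ± 0.517 RPKM with TTX (adjusted p = 9.6e-08). These calls also held under the 3 scalings.

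Of 10 genes of glutamate uptake and supply, 9 were higher and none lower with Bic/4AP than untreated as deposited. After quantile normalization 5 were higher and 1 lower, and after loess normalization 6 were higher and 1 lower. Over all genes 29.6% were higher and 42.5% lower as deposited, and 5741 of 14801 were higher and 4568 lower after quantile normalization. Slc17a6, a vesicular glutamate transporter, averaged 48.4 ± 2.21 RPKM with Bic/4AP and 16.1 ± 2.60 RPKM untreated (adjusted p = 4.26e-08), under all 3 scalings. With TTX against untreated, 2 were higher and 2 lower as deposited. After quantile normalization none were higher and 3 lower, and after loess normalization none were higher and 4 lower. Over all 14801 genes, 5521 were higher and 4724 lower after quantile and 4553 higher and 5241 lower after loess normalization.

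In Bic/4AP against TTX, 6 genes of the Gq list were higher and 9 lower as deposited, and 9 of the Gi/o list were higher and 9 lower. In the scaffold list 9 were higher and 12 lower, with Homer1 at 72.1 ± 2.51 RPKM with Bic/4AP and 24.1 ± 0.271 RPKM with TTX (adjusted p = 1.62e-09). In the uptake list 9 were higher and none lower. After quantile and after loess normalization the uptake list had 8 higher and 1 lower. Over all genes 23.7% were higher and 53.1% lower as deposited. Of all 14801 genes, 4986 were higher and 5351 lower after quantile and 5134 higher and 5290 lower after loess normalization.

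The genes most like each receptor were those with the highest Pearson correlation of log2 values over the 9 libraries. This is a description, since the libraries share 3 treatments and their depths. For Grm7 they were Clasrp (0.998), Ring1 (0.997) and Dgka (0.997), and Clasrp averaged 2.12 RPKM with Bic/4AP, 9.55 RPKM with TTX and 33.1 RPKM untreated. For Grm5 they were Ssr3, Zeb2 and Lin7c (0.994 to 0.995), and for Grm2 Ccdc112, Rnf169 and Ctsz (0.991 to 0.996). For Grm4 they were Cmtm6, Mrm1 and Haus4 (all 0.992), for Grm8 Sntg1, Bicd1 and Elovl7 (0.978 to 0.991), and for Grm3 Lats1, Zbtb6 and Lactb2 (0.883 to 0.922).

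The loci differ widely in length on GRCm38. Grm2 spans 11.6 kb at chr9:106644534-106656109, Grm4 91.4 kb at chr17:27422387-27513826 and Grm3 240 kb at chr5:9485236-9725352. Grm5 spans 551 kb at chr7:87583981-88135063, Grm8 860 kb at chr6:27275121-28135146 and Grm7 922 kb at chr6:110645349-111567230. Among 863 tested genes of 200 kb or more, 44.3% were called lower with Bic/4AP against untreated and 41.9% with TTX against untreated. These shares stand beside 42.5% and 23.5% over all genes. Grm3, Grm5, Grm7 and Grm8 are 4 of these long genes, and Grm5, Grm7 and Grm8 were called lower with TTX. For Grm4 and Grm5 the reference used gives no strand, so values are given for the ends by coordinate.

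CpG methylation within 1000 bases of the start was at most 13.9% in all 3 libraries for the 4 genes with a listed start. The Grm2 promoter averaged 13.9% with Bic/4AP, 12.2% with TTX and 13.4% untreated over 50 CpGs. The Grm3 promoter averaged 5.04% with Bic/4AP, 4.61% with TTX and 4.49% untreated over 61 CpGs. The others were lower still. Grm7 averaged 0.963% with Bic/4AP, 1.29% with TTX and 1.44% untreated over 70 CpGs, and Grm8 0.895% with Bic/4AP, 0.702% with TTX and 0.927% untreated over 109 CpGs. The lower-coordinate end of Grm5 was at 8.19% with Bic/4AP, 8.55% with TTX and 9.39% untreated (32 CpGs), and the upper-coordinate end of Grm4 at 6.84% with Bic/4AP, 6.71% with TTX and 7.40% untreated (154 CpGs). The lower-coordinate end of Grm4 was at 21.2% with Bic/4AP, 21.6% with TTX and 20.8% untreated (31 CpGs), and the upper-coordinate end of Grm5 had no CpG listed in all 3 libraries. With 1 library a treatment and no coverage given, no test and no interval were possible. For the 4 genes with an annotated start, each Bic/4AP minus untreated difference lay between -0.48 and 0.54 points, inside the 5th to 95th percentile of -3.64 to 3.25 points over 14412 promoters.

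Over whole genes methylation was high. It averaged 82.9% with Bic/4AP, 83.2% with TTX and 83.3% untreated for Grm8, the highest, and 64.1% with Bic/4AP, 64.8% with TTX and 64.9% untreated for Grm4, the lowest. Grm7, whose mRNA was 0.297 times the untreated mean with Bic/4AP, averaged 80.5% with Bic/4AP, 80.5% with TTX and 80.7% untreated over 2444 CpGs. The Bic/4AP minus untreated differences of the 6 genes ran from -0.80 to 0.56 points, inside the 5th to 95th percentile of -2.29 to 1.94 points over 19587 genes.

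**Figure D3:**
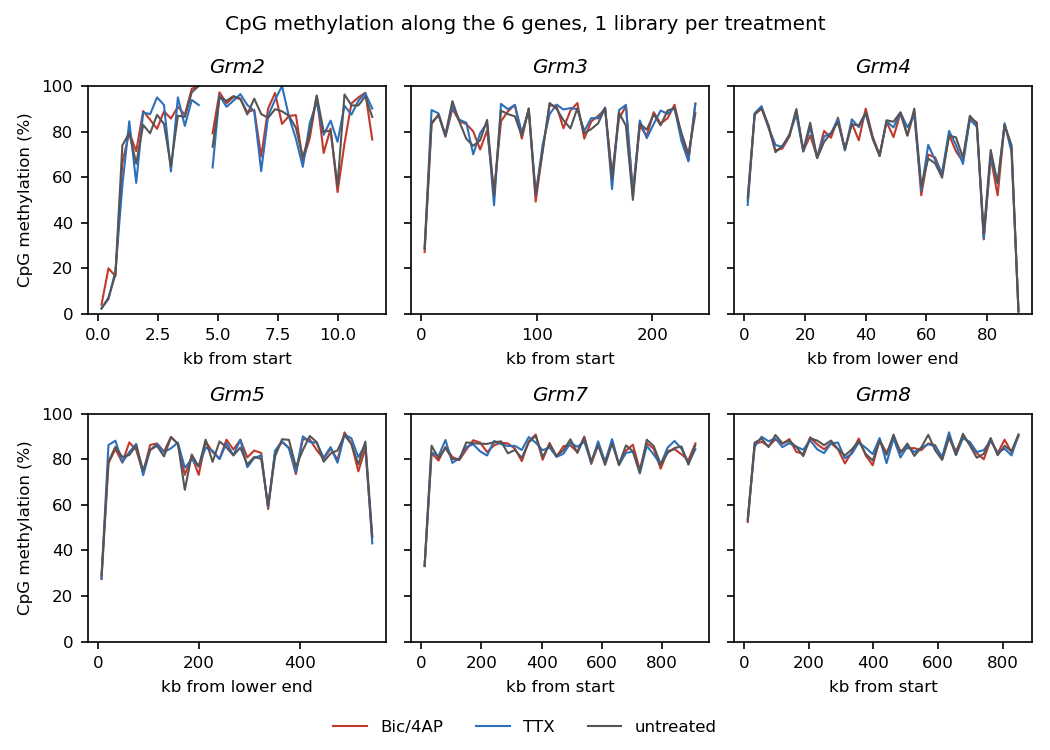
Each panel plots mean CpG methylation in percent (vertical axis, 0 to 100) in 40 bins along 1 receptor gene, by distance in kb from the annotated start (Grm2, Grm3, Grm7, Grm8) or the lower-coordinate end (Grm4, Grm5), for 1 library each of Bic/4AP, TTX and untreated neurons. A gap in a line is a bin without a shared CpG. Methylation is lower at the start of Grm2, Grm3, Grm7 and Grm8, at the upper end of Grm4 and at both ends of Grm5 (bins of 27.5 to 29.3% at the lower and 43.1 to 46.2% at the upper end); lines of Grm2 differ most in bins that hold few CpGs, such as 85.7% with Bic/4AP, 62.5% with TTX and 64.7% untreated in a bin of 1 CpG.

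H3K27ac peaks were counted over each gene and 5000 bases either side. The authors' lists differ in size, with 7721 and 55035 peaks for Bic/4AP and 4846 and 49701 for untreated neurons, so lists were compared by number. In list 2 Grm7 held 70 peaks with Bic/4AP and 31 untreated, and Grm5 held 55 with Bic/4AP and 22 untreated. In list 1 Grm7 held 1 with Bic/4AP and 2 untreated, and Grm5 held 4 with Bic/4AP and 4 untreated. The higher numbers with Bic/4AP were thus seen in 1 of 2 list pairs. The list 2 ratios of 2.26 and 2.5 stand beside a median of 0.927 over 716 genes with 10 or more untreated peaks, of which 12.4% reached 2. The covered length in list 2 was 86.5 kb with Bic/4AP and 30.9 kb untreated for Grm7, and 85.8 kb with Bic/4AP and 48.5 kb untreated for Grm5. These ratios of 2.80 and 1.77 stand beside a median of 1.04 over the same 716 genes. The median authors' score in list 2 was lower with Bic/4AP, at 93.45 against 114 untreated for Grm7 and 109 against 308 untreated for Grm5. For Grm7, more H3K27ac peaks in that pair stood beside less mRNA with Bic/4AP.

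Overlapping peaks were joined into sites, 79 at Grm7 and 56 at Grm5. The Grm7 start lay in a site of 6109 bases found in all 4 lists, at chr6:110644470-110650579, with authors' scores of 145 and 3100 with Bic/4AP and 55.3 and 1053 untreated. Methylation there was 7.60% with Bic/4AP, 8.08% with TTX and 8.66% untreated. Grm5 had 2 sites in all 4 lists, inside the gene at 161 and 341 kb from its lower-coordinate end, and that end itself lay in a site of both Bic/4AP lists and 1 untreated list. A site in all 4 lists was held by 11.4% of all genes and 29.0% of genes of 200 kb or more. Sites seen in Bic/4AP lists alone numbered 52 at Grm7 and 35 at Grm5, each in 1 list, since no site was in both Bic/4AP lists and neither untreated list. Only 4.18% of all genes and 11.3% of genes of 200 kb or more held a site of that last kind. The sites in Bic/4AP lists alone averaged 75.9% methylation with Bic/4AP, 76.0% with TTX and 76.1% untreated at Grm7. At Grm5 they averaged 81.2% with Bic/4AP, 80.6% with TTX and 78.1% untreated. Sites in untreated lists alone numbered 10 at Grm7 and 4 at Grm5. Over 25 CpGs those at Grm7 averaged 62.4% with Bic/4AP, 73.9% with TTX and 65.2% untreated, and over 6 CpGs those at Grm5 averaged 86.1% with Bic/4AP, 80.1% with TTX and 92.5% untreated.

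**Figure D4:**
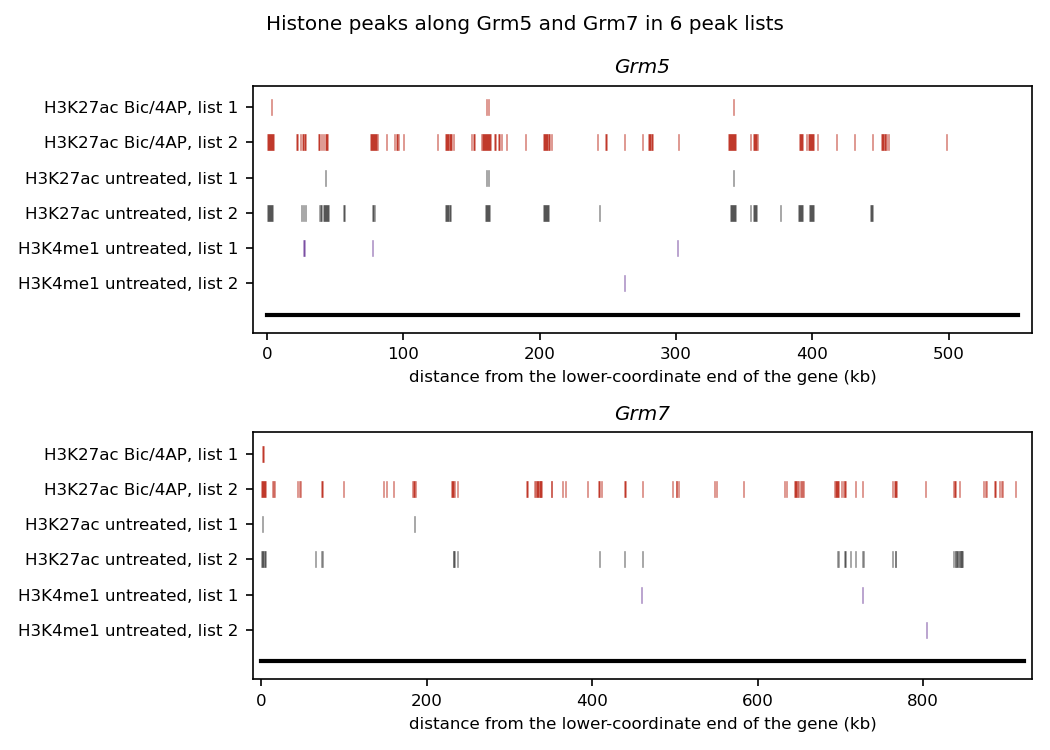
Marks show peaks along Grm5 and Grm7 by distance in kb from the lower-coordinate end (horizontal axis), in rows for H3K27ac with Bic/4AP (lists 1 and 2), H3K27ac untreated (lists 1 and 2) and H3K4me1 untreated (lists 1 and 2); the black bar is the gene and narrow peaks are widened to be visible. In list 2 Grm7 has 70 Bic/4AP peaks and 31 untreated peaks, spread over the gene, and list 1 holds 4 or fewer for either gene.

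The other receptors had few peaks. Grm2 had 2 peaks and Grm8 had 2, found in untreated list 2 alone, with no peak in either Bic/4AP list. Between the second lists, 4.81% of the genes tested for expression had peaks in the untreated list only. One of the Grm2 peaks, at chr9:106656417-106656917, lay just before the start of the gene with an authors' score of 67.2 on lists that begin at 50, so it was near the lowest score listed. Grm3 had 1 site, 146 kb inside the gene, with scores of 255 in Bic/4AP list 2 and 1272 in untreated list 2. Grm4 had no peak in any list, and 25.6% of tested genes had none in either list 2. The lists do not say whether coordinates count from 0 or 1, and 2 lists a group allow no test.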

How the data were processed

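Expression came from 9 poly(A) RNA libraries (NEBNext Ultra Directional kit, per the labels' protocols). The deposited values were taken as RPKM from their steps. For 100% of 19588 genes above 0 in 3 or more libraries, they came out as whole multiples of 1 read. The tolerance was 0.05 read plus a small share of the read number. The multiple was sought gene by gene, so the check is weak for genes with few values above 0. Strand use in counting was not given in the sources used here. Overlapping antisense transcripts can therefore not be told apart. The deposited methylation values are a fraction per CpG without coverage (post-bisulfite adaptor tagging, per the labels' protocols), so the depth is unknown; they were averaged over CpGs listed in all 3 libraries and are printed in percent. The deposited peak lists give the authors' score per peak and are per sample. The submitters' processing notes name mm10, MACS 1.4.1, Bowtie2 2.2.4, TopHat and SAMtools 0.1.19. The 1 input sample was left out.

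Labels gave the groups. Log2(RPKM + 1) values of all 9 libraries entered 1 fit in limma 3.58.1 (R 4.3.3) with an intensity trend, treatment as the only term and no replicate block, with a threshold of 0.05 on p adjusted by Benjamini and Hochberg's method over 14801 genes. This scale understates changes of low genes. The procedure was tested on simulated reads in which few genes changed, in 1 group, with a fixed spread and no difference in scaling. These data differ in that most genes were called, so that test says nothing of calls that depend on scaling. Counting errors assume Poisson reads and cover counting error only. Gene positions and promoters are RefSeq's on GRCm38, matched by symbol: all 6 genes had a position and 4 a promoter entry.

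The 6 genes are always named. From each signalling list and comparison at most the 2 genes a direction with the smallest adjusted p were eligible, and some of these are not printed. The genes and lists were chosen with earlier results of these data known. Alternatives were a pseudocount of 0.1, no filter, quantile and cyclic loess normalization, a replicate block, 6 libraries in the fit, each library left out, other CpG sets and windows, a score of 100 or more, a stricter overlap and 20000 bases either side.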

Additional observations from a re-analysis of the deposited data

How the results depend on the processing

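Of 216 alternative values of single genes, 193 kept direction and call, 9 gained a call, 3 lost one and 11 turned round. A pseudocount of 0.1 RPKM, no filter, 6 libraries in the fit and the replicate block changed no call of the 6 genes, and the block left 4 genes called in each comparison. Deviations from the group means correlated at -0.173 to 0.0435 between same-numbered libraries and at -0.1289 to 0.2075 between differently numbered ones. With 3 libraries a group this cannot settle whether the numbers pair libraries. With each library left out, the number called was 4 in Bic/4AP against untreated, 4 in TTX against untreated and 4 to 5 in Bic/4AP against TTX.

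In Bic/4AP against untreated, quantile and loess normalization turned Grm3 to 0.41 and 0.42 and Grm5 to -0.16 and -0.14, and the cause was not tested. In the same comparison, leaving out 1 library at a time gave -0.27 to 0.23 for Grm3, with 0.23 without Bic/4AP replicate 3 and 0.09 without untreated replicate 2. It gave -0.089 to 0.16 for Grm4, which was below 0 without Bic/4AP replicate 2 (-0.03) and without untreated replicates 1 (-0.089) and 3 (-0.02). In Bic/4AP against TTX it gave -0.0052 to 0.49 for Grm3 and -0.00023 to 0.24 for Grm8, both lowest without Bic/4AP replicate 1. Apart from those of Grm5, none of the values that turned round passed the test in either direction.

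The median Bic/4AP minus untreated methylation difference was 0.19 points over 4 promoters, -0.064 with every CpG listed and -1.90 in the window of 250 bases before to 50 after the start, where as few as 3 CpGs were listed in all 3 libraries. Over 6 gene bodies it was -0.08 points, -0.44 with every CpG listed and -0.13 without the first 2000 bases, cut from both ends where no strand was given. H3K27ac sites numbered 140, 74 at a score of 100 or more, 145 with the stricter overlap and 144 with 20000 bases either side. At a score of 100 or more, no site of Grm7 or Grm5 was in all 4 lists. Sites in Bic/4AP lists alone then numbered 24 at Grm7 and 14 at Grm5, and sites in untreated lists alone 9 and 2. Depth limits Grm8 most, at 20 to 36 reads a Bic/4AP library.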

Other observations

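H3K4me1, listed for untreated neurons alone, marked Grm5 with 3 peaks in list 1 and 1 in list 2, and Grm7 with 2 peaks in list 1 and 1 in list 2. The lists held none at Grm2, Grm3, Grm4 or Grm8. Of the H3K27ac sites found in Bic/4AP lists alone, 2 of 35 at Grm5 and 0 of 52 at Grm7 overlapped an H3K4me1 peak. Among 956 genes of 200 kb or more, 38 held as many H3K27ac peaks in Bic/4AP list 2 as Grm7 or more, and 65 as many as Grm5 or more, while the median was 8 with Bic/4AP and 7 untreated. Grm8, of similar length to Grm7, was among the 15.3% of such genes without a peak in Bic/4AP list 2.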
